A study of Apis cerana with 76 samples.

Results

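miR-184 was the most abundant miRNA, by mean share of counts, in small RNA libraries of wild-type Asian honey bees, Apis cerana. It was selected on that measured share, with earlier results of these data known, so its levels are given here as a description. Tests are confined to differences between columns. These come from the same counts as the mean share, so their independence of the choice was not established. Entries were matched by the name miR-184 on either strand, and 1 of 146 entries in the stage sheet and 1 of 171 in the organ sheet matched, miR-184-3p in both. The opposite strand, miR-184-5p, was not analysed here.

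The stage series held 18 groups of 3 libraries, and the authors' sequencing statistics name their codes. They were egg, larvae L1 to L5, pupae with white eyes (W), red eyes (R), dark red eyes (DR) and dark red eyes and body (DRB), young adult nurse workers (YA), old adult forager workers (OA) and adult drones (D). Queens were sampled as larvae (QL), as pupae with white (QW), red (QR) and dark red eyes (QDR), and as adults (QA). Another 11 groups of 2 libraries came from organs. These were the brain, rectum and midgut (ventriculus) of workers (WB, WR, WV) and of drones (DB, DR, DV), worker ovary (WO), worker venom gland (WVG), drone mucus gland (DMG), drone testis (DT) and queen ovary (QO). The labels give no caste for egg, L1 to L5 and W to DRB, called plain here, and neither an age nor whether animals were pooled. The deposited sheets hold 1 column per group, so no value below has an error between replicate libraries, and p-values measure the spread between columns.

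miR-184 is a deeply conserved animal miRNA. Like other miRNAs it guides silencing complexes to messenger RNAs that pair with its seed, bases 2 to 8 of the mature strand. In Drosophila it acts in the female germline and the early embryo, where its known targets include a receptor of the Dpp signal. The sequences of miR-184-3p and of the 2 other miRNAs that were first in a stage column, miR-1-3p of muscle and miR-8-3p, a miR-200 relative with roles in growth and fat body in flies, are shown from the authors' count sheet to compare their seeds, in capitals.
miR-184-3p: uGGACGGAgaacugauaagggc
miR-1-3p: uGGAAUGUaaagaaguauggag
miR-8-3p: uAAUACUGucagguaaagauguc

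miR-184-3p had the same sequence of 22 bases in both sheets and in the authors' list of conserved miRNAs. Its seed GGACGGA was at bases 2 to 8 of 0 of the 145 other stage entries and 0 of the 170 other organ entries, and it was found nowhere else in them. The longest run of bases shared with another entry was 7, in miR-6045-5p in both sheets and also in miR-9867 in organs. No other counted entry was a near copy of miR-184-3p.

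Column totals ran from 72873 counts (QA) to 19772824 (DRB) in stages and from 184457 (WR) to 8476499 (DMG) in organs. miRNA counts were under 3% of sequenced reads in 5 stage columns (egg, QL, QW, QR and QA) and 4 organ columns (WO, WR, WVG and DR), if a column sums its libraries. Levels are given as CPM, a count per 1000000 counts of its column, with column totals adjusted by TMM, which sets a trimmed mean of the log ratios between columns to 0. Of the organ markers, the midgut miRNA miR-281-5p stood at 8337 and 7511 CPM in worker and drone ventriculus, against 40.9 to 2163 CPM elsewhere. The ovarian miR-989-3p stood at 12156 CPM in worker and 6996 CPM in queen ovary, against 380 to 4049 CPM elsewhere. The other ovarian marker, miR-318-3p, stood at 9209 CPM in queen ovary but only 182.5 CPM in worker ovary, below testis at 734 CPM. Of the muscle markers, miR-1-3p was highest in mucus gland (570080 CPM) and miR-133-3p in testis (12347 CPM). The neural markers did not set the brains apart. miR-315-5p stood at 701 CPM in worker and 609 CPM in drone brain but 1364 CPM in mucus gland, and miR-137-3p at 22.3 and 12.5 CPM but 130.8 CPM in queen ovary. The names miR-124-3p and miR-219-5p matched no counted entry.

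miR-184-3p took a mean share of 31.7% of miRNA counts over the 18 stage columns (SD 9.55 between columns). It was first in 14 columns and first or second in all 18. In egg its share was 21.7%. In L1, L2, L3, L4 and L5 larvae the shares were 39.7%, 46.8%, 46.0%, 44.3% and 38.3%, the highest run of the series, with L2 at the top. In W, R, DR and DRB pupae the shares were 23.0%, 25.7%, 25.7% and 26.2%, so every plain pupal column lay below every plain larval one. From L5 to W the level of miR-184-3p went from 407795 to 181875 CPM, a log2 ratio of -1.16, and 41% of 78 entries were at least 2-fold apart between these columns, where the median was -0.17. YA and OA workers held 26.27% and 22.18%, the former just above and the latter just below the pupal range. Adult drones held 12.3%, the lowest of all stage columns. QL, QW, QR, QDR and QA queens held 30.5%, 33.6%, 35.6%, 34.7% and 38.6%, each above every plain pupal, worker and drone column. How many other entries separate the queen columns in this way was not computed. In QL, QW, QR and QA miRNA counts were under 3% of reads, and the part of this low yield was not tested. Queen pupae against plain pupae did not pass (edgeR adjusted p 0.222). Counting error alone was small, with a 95% Wilson interval of 38.2% to 38.9% in adult queens, the column of fewest counts. Neighbours in this order, such as R and DR pupae or DRB pupae and YA workers, cannot be separated, because the sheets give no spread between their libraries.

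**Figure D1:**
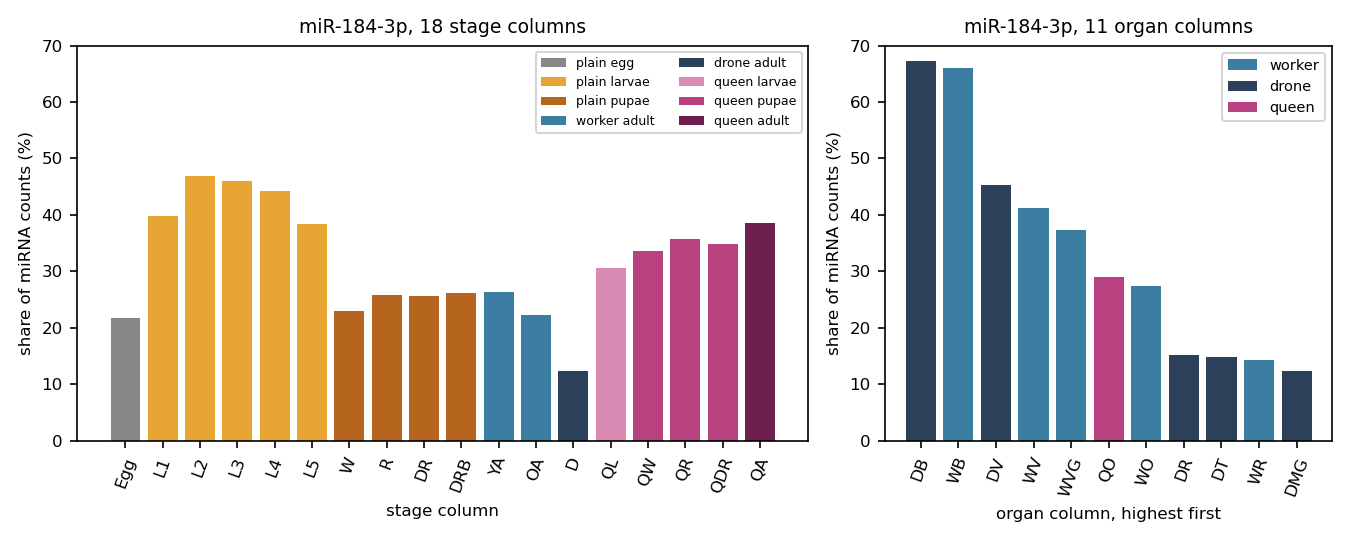
Share of miRNA counts taken by miR-184-3p (y axis, percent) in each pooled column, stages in the order of the sheet (left) and organs from highest to lowest (right), 1 bar per column and no error bar because each column pools its libraries. Larval bars stand at 38.3% to 46.8%, plain pupal bars at 23.0% to 26.2%, and both brains above 66%.

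The organ columns spread more widely, with a mean share of 33.7% (SD 19.9 between columns). miR-184-3p was first in 8 of 11. Brain held the most: 67.3% in drones and 66.0% in workers. In the brains the next entry was miR-276-3p, a miRNA with roles in the nervous system and reproduction of insects, at 7.05% and 6.51%, so that miR-184-3p outnumbered it 9.54-fold and 10.1-fold. Ventriculus followed, with 45.3% in drones and 41.2% in workers, where miR-750-3p came next at 12.05% and 14.08%. Worker venom gland held 37.3%, queen ovary 29.0% and worker ovary 27.4%. Rectum (15.2% in drones, 14.3% in workers), testis (14.8%) and mucus gland (12.4%) formed a low group. By share the gonads thus did not rank together, since both ovaries lay above testis, and brains and not gonads were highest. The place of worker ovary depended on the scale. With TMM it stood at 102666 CPM, the lowest organ column, beside 103086 CPM in testis and 308553 CPM in queen ovary. With DESeq2 size factors worker ovary stood at 136098 CPM and testis at 78647.5 CPM. The 95% Wilson interval in worker rectum, the organ column of fewest counts, was 14.1% to 14.4%.

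Where miR-184-3p was not first, the muscle miRNA miR-1-3p or miR-8-3p took its place. miR-1-3p led in YA workers (32.6%), OA workers (33.9%), adult drones (37.2%), both rectum columns (21.3% in workers, 29.4% in drones) and mucus gland (47.1%), and miR-8-3p led in queen larvae (34.5%). In rectum miR-31a-5p also stood above miR-184-3p, at 19.6% in workers and 20.9% in drones. Because the ratio of 2 miRNAs within a column needs no scaling, it shows how they moved against each other. miR-184-3p outnumbered miR-1-3p 22.7-fold in L1, 20.5-fold in L2, 18.3-fold in L3, 8.78-fold in L4 and 7.80-fold in L5 larvae. The ratio was 2.32, 2.50, 1.05 and 1.49 in W, R, DR and DRB pupae, then 0.806 in YA and 0.655 in OA workers and 0.330 in adult drones. It was lower in every pupal column than in every larval one, and under 1 in the worker and drone adults. The share of other entries whose ratio to miR-1-3p separates in this way was not computed. In egg the ratio was 2.59, below every larval column. In queens it stood at 5.63 in larvae, at 3.83, 4.51 and 1.98 in QW, QR and QDR pupae, and at 1.28 in adults, each queen pupal value above that of the plain pupae with the same eye colour. Against miR-8-3p the ratio went the other way in late stages. It was 2.02 in egg and 1.30, 1.81, 1.51, 1.79 and 1.38 in L1 to L5. In W and R pupae it was 1.08 and 1.37, and in DR and DRB pupae 2.56 and 2.55. It then stood at 4.09 in YA workers, 3.13 in OA workers and 6.72 in adult queens, but 1.47 in adult drones. Over let-7-5p, which times metamorphosis in insects, miR-184-3p stood 9.34-fold in egg, 59.0-fold in L1 and 15.3-fold in L5 larvae. In the 4 plain pupal columns it stood 2.09-fold to 2.56-fold.

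**Figure D2:**
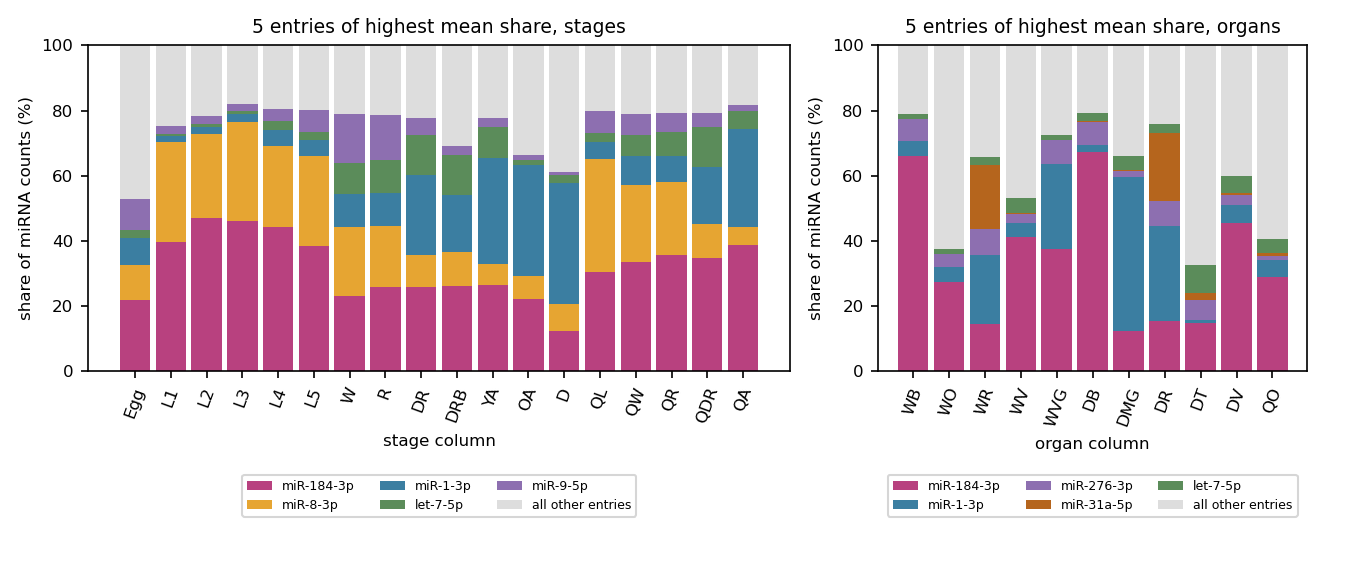
Share of miRNA counts (y axis, percent) of the 5 entries with the highest mean share and of all other entries together, stacked for each stage column (left) and organ column (right). In larvae miR-184-3p and miR-8-3p fill most of a column, while miR-1-3p widens from 1.75% in L1 to 37.2% in adult drones. The miR-184-3p band goes from 38.3% to 46.8% in plain larvae to 23.0% to 26.2% in plain pupae and 12.3% in adult drones. From QL to QA, both columns with miRNA counts under 3% of reads, both bands widen. There miR-1-3p goes from 5.41% to 30.2% and miR-184-3p from 30.5% to 38.6%.

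The change from larva to pupa was examined in the plain columns. As TMM-scaled levels, miR-184-3p stood at 503681, 619298, 795816, 563023 and 407795 CPM in L1 to L5 larvae and at 181875, 261440, 282358 and 248628 CPM in W, R, DR and DRB pupae. The groups did not overlap, as was the case for 30.3% of the 145 entries tested, and for 34.5% by share. miR-184-3p fell by 1.25 on the log2 scale (SE 0.28, edgeR adjusted p 0.00490), while 40% of entries were called, 22.1% falling and 17.9% rising, and the median of all entries was -0.15. miR-8-3p fell by 1.40 (SE 0.32, adjusted p 0.00490), and miR-1-3p rose by 1.87 (SE 0.44, adjusted p 0.00509). The size of the fall of miR-184-3p depended on the scaling. The log2 difference was -0.71 with TMM computed without miR-184-3p (edgeR adjusted p 0.0364, median of all entries 0.31). Library totals gave -0.77 (median 0.30), the compared columns alone -0.77 (median 0.28) and DESeq2 size factors -1.02 (median 0.04). Relative to the median of all entries, the change of miR-184-3p was -1.12 to -1.02 under all alternatives other than leaving out a column. Where only the scaling changed, all entries of a column moved together. The narrow range was thus largely fixed in advance and is not a test of the change. The call was lost without DR pupae (adjusted p 0.0730), without L1 larvae (0.0798) and without the 5 columns of low miRNA yield (0.0631). The direction of the level depended on the scale: per 1000000 sequenced reads, miR-184-3p stood at 101548, 110259, 77394, 39584 and 22592 in L1 to L5 and at 50524, 77759, 146543 and 179451 in W to DRB, so that the groups overlapped and the fitted difference was 0.69 (adjusted p 0.622), where the median of all entries was 1.78. Over these columns miRNA counts went from 25.6% of reads in L1 to 5.89% in L5 and 68.5% in DRB, and the part of this yield in the result was not tested.

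**Figure D3:**
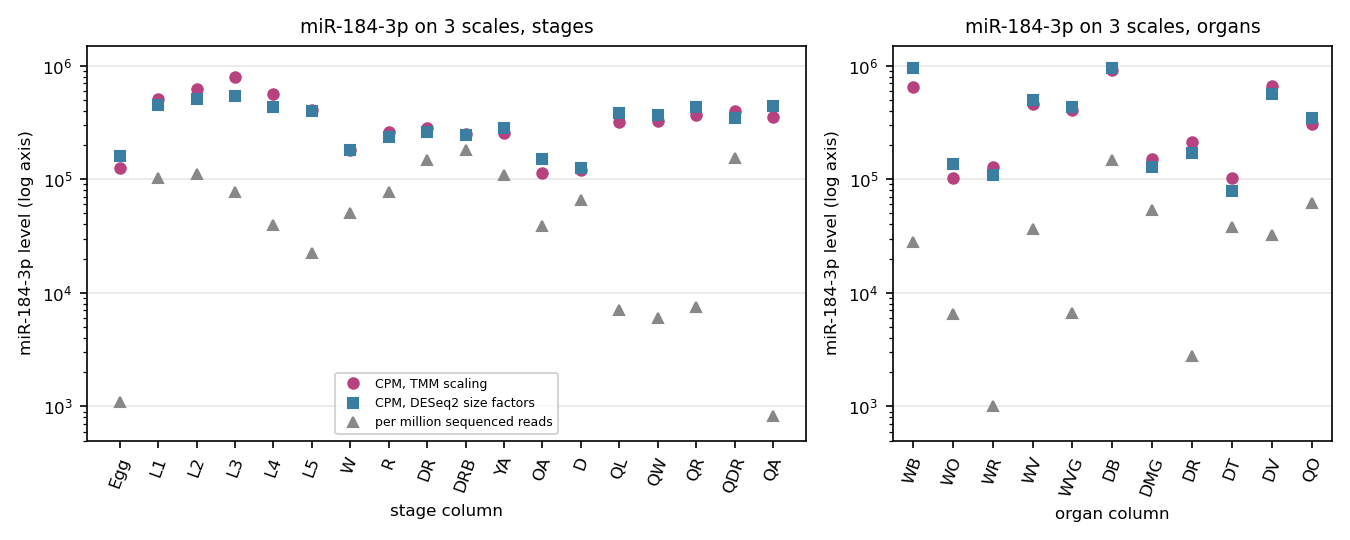
Level of miR-184-3p (log y axis) in each pooled stage (left) and organ (right) column on 3 scales: CPM scaled by TMM, CPM scaled by DESeq2 size factors, and counts per 1000000 sequenced reads. On both CPM scales larvae lie above plain pupae, whereas relative to sequenced reads the level goes from 110259 in L2 to 22592 in L5 and back to 179451 in DRB.

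The miRNAs listed for germline and oogenesis roles in Drosophila were set beside miR-184-3p in this comparison. Of 11 listed, 8 were counted in stages and tested. 1 rose, miR-7-5p, which acts in fly germline stem cells (1.17, adjusted p 0.0130), and 4 fell. The falling members were miR-79-3p, with a log2 change of -2.72, miR-92b-3p with -2.32, miR-306-5p with -2.14 and miR-278-3p with -1.30. miR-79-3p was scarce, at 5.15 to 19.2 CPM in plain larvae and 1.10 to 2.85 CPM in plain pupae. The median log2 change of all 8 tested members was -1.15 against -0.15 over all entries, of which 17.9% rose and 22.1% fell. Of 14 counted members of the list of abundant conserved insect miRNAs, 5 rose and 3 fell, beside the same 17.9% and 22.1% of all entries, with a median of -0.17.

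The next step compared was that from pupae to adult workers. miR-184-3p stood at 252233 CPM in YA and 114214 CPM in OA workers, so YA lay within the pupal range and OA below it. The log2 difference of -0.41 (SE 0.36, edgeR adjusted p 0.403) was also the median of all entries, and 7.59% of entries were called, 4.83% rising and 2.76% falling. It was 0.05 without OA (adjusted p 0.979, median of all entries -0.35) and -1.29 without YA (adjusted p 0.0416, median -0.65). Each of these fits had 1 adult worker column, assumed to vary like the other groups. OA against YA had 1 column each and no test; the log2 ratio was -1.14 with TMM, where the median of 82 entries was -0.71, and -0.24 with library totals, where it was 0.19. Adult drones, at 121005 CPM, stood -1.06 from YA on the log2 scale with TMM (median of 80 entries -0.04) and -1.10 with library totals. Against OA the log2 ratio was 0.08 with TMM and -0.85 with library totals, below the median of 77 entries on both scales (0.60 and -0.33).

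Queen pupae were set against plain pupae of the same eye colour. Levels were 325987 CPM in QW and 181875 CPM in W, 365930 CPM in QR and 261440 CPM in R, and 395653 CPM in QDR and 282358 CPM in DR. The queen column was higher in 3 of 3 pairs. The log2 difference of 0.64 (SE 0.22) had an unadjusted p of 0.0133 and an edgeR adjusted p of 0.222, so it did not pass, and 2.24% of 134 entries did. miRNA counts were 1.79% and 2.12% of reads in QW and QR against 21.98% and 30.21% in W and R, and 44.4% in QDR against 57.1% in DR, where the log2 ratio of miR-184-3p was 0.49, and the part of this yield was not tested. Per sequenced read the fitted difference was -2.22 (adjusted p 0.264), where the median of all entries was -2.95. Relative to the median of all entries the difference was 0.68 to 0.73 under the alternatives other than leaving out a column. This range too was largely fixed in advance where only the scaling changed. Adult queens had 353682 CPM, with log2 ratios of 0.49 to YA workers and 1.55 to adult drones, untested with 1 column each and with 28099 counts of miR-184-3p in all. Against YA the log2 ratio was -0.19 with TMM computed without miR-184-3p, and it lay above the median of 83 entries on both scales (-0.48, and -1.15 without miR-184-3p).

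Brain was set against gut (ventriculus and rectum), with a term for drones. miR-184-3p stood at 642427 CPM in worker and 912261 CPM in drone brain. It stood at 461284 and 659227 CPM in worker and drone ventriculus and at 128546 and 213205 CPM in worker and drone rectum. Within workers and within drones brain was highest, ventriculus next and rectum lowest. Brain exceeded gut by 1.34 on the log2 scale (SE 0.10, edgeR adjusted p 0.00451), with 23% of 135 entries called, 13.3% higher and 9.63% lower in brain, and a median over all entries of -0.18. The call was lost without worker brain (adjusted p 0.0825) or drone brain (0.0844), fits with 1 residual degree of freedom in which no entry was called (35 and 39 at an unadjusted p under 0.05). Over ventriculus alone the brain was 0.48 higher in workers and 0.47 in drones, untested. Of the 8 germline list members tested, miR-7-5p was also higher in brain (2.13, adjusted p 0.0162). The list had a median of -0.71. Of 14 abundant conserved miRNAs, 4 were lower in brain (miR-9a-5p, miR-275-3p, miR-31a-5p and miR-12-5p) and 0 higher.

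Ventriculus exceeded rectum in miR-184-3p by 1.73 (SE 0.12, edgeR adjusted p 0.00557), against 4.44% of 135 entries called in either direction and 2.22% called higher in ventriculus, and a median of -0.12. The log2 ratio was 1.84 in workers and 1.63 in drones. The call was lost without drone ventriculus (adjusted p 0.0502), with the 6 columns of these 3 organs alone (0.0551) and with sequenced reads (0.0870). miRNA counts were 0.704% and 1.82% of reads in worker and drone rectum, against 8.85% and 7.09% in ventriculus. The muscle miRNA miR-1-3p stood at 191906 and 411204 CPM in worker and drone rectum, against 47115 and 82430.5 CPM in ventriculus, and the part of either in the result was not tested.

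Drone organs were set against the same worker organs. The shares were 67.3% against 66.0% in brain, 45.3% against 41.2% in ventriculus and 15.2% against 14.3% in rectum, so the drone share was higher in 3 of 3 organs. The log2 difference of 0.58 (SE 0.10) had an edgeR adjusted p of 0.190. With library totals it was 0.09. In this comparison 0% of 135 entries were called by edgeR, with 11 at an unadjusted p under 0.05, and 3 were called by DESeq2. Relative to the median of all entries, the difference of miR-184-3p was 0.36 to 0.42 under the alternatives other than leaving out a column. Where only the scaling changed, this range was again largely fixed in advance.

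**Figure D4:**
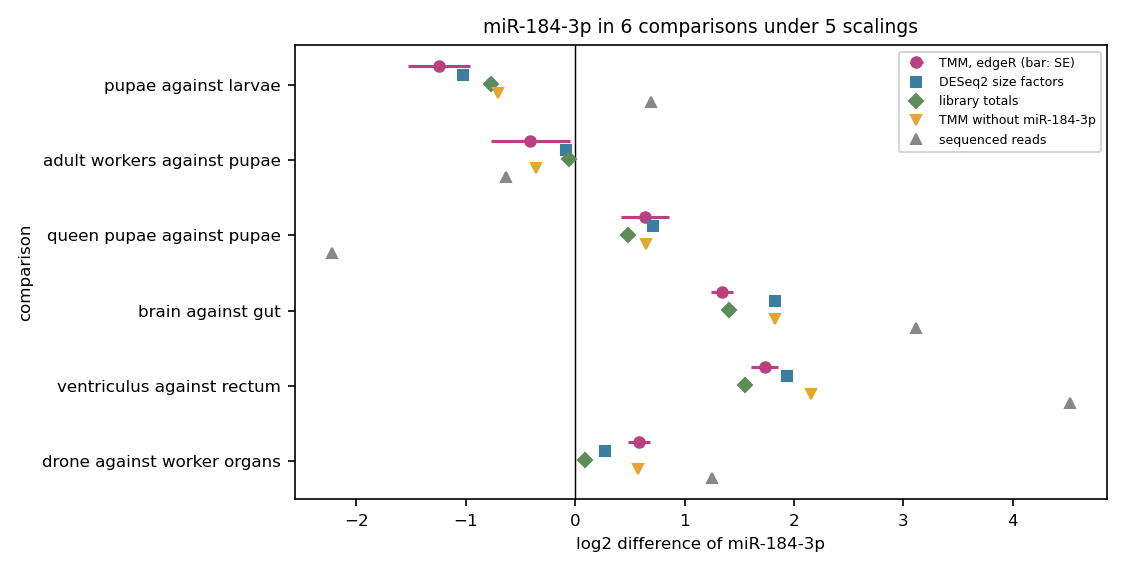
Log2 difference of miR-184-3p (x axis) in the 6 comparisons (y axis) under 5 scalings, with the standard error as a bar on the TMM value. Brain over gut and ventriculus over rectum lie right of 0 under all 5, while pupae against larvae and queen pupae against pupae change side with sequenced reads.

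On the log2 scale miR-184-3p varied less between columns than the median entry. Among 86 entries with a mean of at least 50 CPM in stages, the SD of its log2(CPM + 1) over columns was 0.80, the 15th lowest, against a median of 1.19. It was the 9th lowest with DESeq2 size factors and the lowest with library totals, a scale on which an entry this abundant has limited room to vary. Among 96 such entries in organs its SD was 1.14, the 19th lowest, against a median of 2.01. There it was the 24th lowest with DESeq2 size factors and the 8th lowest with library totals. From lowest to highest column its level spanned 6.97-fold over stages and 8.89-fold over organs with TMM, and 4.30-fold and 12.1-fold with DESeq2 size factors. Counting error weighs more on the scarce entries that miR-184-3p was compared with. In adult queens 1 count stood at 12.6 CPM, and the part of this error in the SDs was not tested.

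**Figure D5:**
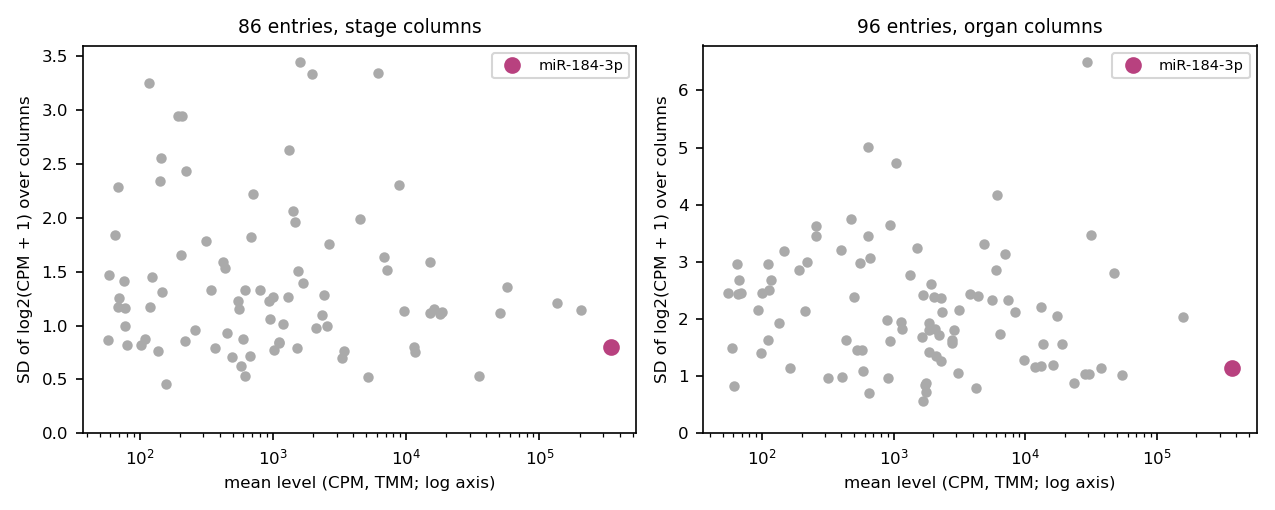
Mean level (log x axis, CPM scaled by TMM) and SD of log2(CPM + 1) over columns (y axis) of each entry with a mean of at least 50 CPM, for 18 stage columns (left) and 11 organ columns (right). miR-184-3p is the rightmost point in both panels, with SDs of 0.80 and 1.14.

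The entries whose course was most like that of miR-184-3p were found by Spearman correlation of log2(CPM + 1), as a description, since all columns share their scaling. Over the 18 stage columns, among 85 entries, these were miR-8-3p (rho 0.77), miR-275-5p (0.77), miR-92b-3p (0.73), miR-3968 (0.68) and miR-275-3p (0.67). miR-275 has a role in egg development and gut of mosquitoes. miR-275-5p stood at 2042 to 2985 CPM in plain larvae and at 1751, 1220, 522 and 109.7 CPM in W, R, DR and DRB pupae. The least alike were miR-210-3p (rho -0.73), miR-927a-3p (-0.70) and miR-927b-5p (-0.69). miR-210-3p stood at 1.57 to 10.9 CPM in plain larvae and 1594 CPM in adult drones. There miR-184-3p stood at 121005 CPM, the lowest level after that of OA workers (114214 CPM). Over the 11 organ columns, among 95 entries, the most alike were miR-3049-5p (rho 0.74), miR-7-5p (0.72), miR-3785-3p (0.62), miR-6037-3p (0.54) and miR-927a-5p (0.54). miR-3049-5p stood at 12836 CPM in drone and 4143 CPM in worker brain, against 150.6 to 1546 CPM elsewhere. miR-7-5p stood at 8354 CPM in worker and 4310 CPM in drone brain, against 564 to 3823 CPM elsewhere. Both had the 2 brains above every other organ column. miR-184-3p was highest in drone brain, but worker brain (642427 CPM) lay just below drone ventriculus (659227 CPM). The least alike in organs were miR-279b-3p, miR-282-5p and miR-6000-5p, each with rho -0.76. miR-279b-3p stood at 10119 CPM in worker ovary and 8253 CPM in testis, against 42.5 to 602 CPM elsewhere.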

How the data were processed

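Small RNA reads of 54 stage and 22 organ libraries had been summarised by the authors to miRNA read counts in 1 deposited column per group, and whether a column is a sum or a mean was not stated; in 5 stage columns the counts exceeded the mean reads of a library. Sequenced read counts per library came from the authors' statistics sheets, summed per group by group name. bcl2fastq and kallisto are the tools in the submitters' processing notes; versions, settings and a genome build are not given in the sources used here. 1 name in each sheet occurs in 2 rows, which were kept apart.

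Each column was 1 unit. Counts were scaled by TMM and tested with edgeR 4.0.16 (R 4.3.3) by its two-sided quasi-likelihood F-test, after filterByExpr with a minimum count of 10, with Benjamini-Hochberg adjustment over all entries of a sheet and calls at an adjusted p of at most 0.05. Stage classes were fitted over 18 columns (10 residual degrees of freedom), queen against plain pupae over 6 with eye colour as a term, and organs over 11 with a drone term (2 residual degrees of freedom each). Standard errors are the log2 difference over the root of the F statistic. The statistics were tested on simulated data, drawn around 1 mean per entry and so without the class differences of the real columns. The outcome is not given here. Alternatives were DESeq2 1.42.0, other scalings, no filter and columns left out; scaling by sequenced reads, leaving out low-yield columns, and the test of larva-to-pupa steps between queens and plain bees were added after seeing the data. Ratios between single columns use log2(CPM + 1), and their medians cover entries of at least 50 CPM in either column. Wilson intervals (95%) cover counting error only. Named were miR-184-3p, the 5 entries of highest mean share, those first or next to it in a column, the 5 most and 3 least like it, and list members; the ratios and pairs of columns shown were picked after their values were seen. The members and lists were chosen with earlier results of these data known.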

Additional observations from a re-analysis of the deposited data

Results flagged for a closer look

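The share of miR-184-3p in W pupae, 23.0%, lay apart from the other 3 plain pupal columns (25.7% to 26.2%) by a gap that was large for the range of the 4. Chance flags about 1 in 20 such groups, the 4 columns are different stages and not replicates, and on the TMM scale W (181875 CPM) did not stand apart in this way.

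From larvae to pupae the share went down in plain bees (38.3% to 46.8%, then 23.0% to 26.2%) but was higher in all 3 queen pupal columns (33.6% to 35.6%) than in queen larvae (30.5%). The steps differed by 1.45 on the log2 scale (SE 0.58, unadjusted p 0.0249), which edgeR did not call after adjustment over 145 entries (adjusted p 0.775), in a test chosen after the data were seen. Queen larvae had 1 column, and QL, QW and QR had miRNA counts of 2.32%, 1.79% and 2.12% of reads; the part of this low yield was not tested.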

How the results depend on the processing

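Brain over gut kept its call under each other scaling, no filter, DESeq2 and the compared columns alone. Scaling by sequenced reads reversed pupae against larvae, to 0.69, and queen pupae against pupae, to -2.22. The medians of all entries on that scale were 1.78 and -2.95. miR-184-3p stayed below the former and above the latter, as a change of scaling moves all entries of a column together. Without the 5 low-yield columns pupae against larvae was -0.81 and no longer passed. Ventriculus against rectum no longer passed with the compared columns alone (1.95) or sequenced reads (4.52). With columns left out in turn, the log2 difference ran from -1.35 to -0.74 for pupae against larvae, from -1.29 to 0.05 for adult workers against pupae (reversed to 0.0504 without OA), from 0.41 to 0.71 for queen pupae, from 1.29 to 1.40 for brain against gut, from 1.63 to 1.84 for ventriculus against rectum, from 0.51 to 0.62 for drone against worker organs, and from 1.08 to 1.55 for the difference of the steps. Without QW, QDR or DR, queen pupae passed in fits with 1 residual degree of freedom, whose spread is pooled over entries. The cause of these shifts was not tested.

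Counts of entries called in adult workers against pupae, 11, were 19 with library totals, 29 with DESeq2, 0 with the compared columns alone (29 at an unadjusted p under 0.05) and 2 with sequenced reads. In queen pupae, 3 became 0 with DESeq2 size factors, library totals, no filter or sequenced reads (15, 20, 19 and 12 at an unadjusted p under 0.05) and 5 with DESeq2. In brain against gut 31 became 50 with DESeq2. In ventriculus against rectum 6 became 11 with library totals, 41 with DESeq2, 3 with the compared columns alone and 1 with sequenced reads. In drone against worker organs 0 became 2 with TMM computed without miR-184-3p and 3 with DESeq2. With columns left out these counts ran from 42 to 59 (pupae against larvae), 0 to 39, 0 to 63, 0 to 55, 3 to 16 and 0 to 3. Of the 5 entries most like miR-184-3p, 3 remained with library totals in stages and in organs, and 3 with Pearson correlation in organs. The mean share ran from 30.8% to 32.9% over stages and from 30.3% to 35.8% over organs with 1 column left out.

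No paired analysis was possible because each deposited column pools the libraries of a group and carries no replicate number. The planned ratio of the miR-184 strands, and their sum, were not run, since 1 strand was used here.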

Other observations

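In queen ovary miR-184-3p and miR-1175-3p held all but the same share, 28.95% and 28.92%, a ratio of 1.00. Apart from miR-184-3p, the remaining counts were spread over the most entries in worker ovary and testis, where 7 entries made up at least 50% of the rest, against 1 to 4 in the other 9 organ columns. In egg 5 entries did so, and 1 to 3 in the other stage columns.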
